A study of Mus musculus with 8 samples.

Results

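The 30 genes described here encode proteins of mitosis, the stage of the cell cycle in which duplicated chromosomes are condensed, captured by the spindle and divided between daughter cells. They were chosen by name as a list of mitosis genes, with earlier results of these data known. Each was found on the arrays through the accession of its probes, and 29 of the 30 had a probe; Prc1, a protein that bundles microtubules between the separating chromosomes, had no matching accession and was not analysed here. The 29 genes had 43 probes of the 41174 on the array, 42 of them bright enough to keep, and stood among 13305 genes tested. All 29 were well above background on all 8 arrays.

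RNA came from secondary neurospheres of the hippocampus of mice aged 7 to 9 weeks, free-floating clusters of neural stem and progenitor cells grown with 20 ng/ml each of the mitogens bFGF and EGF. The WT and Sirt1 KO groups were 129/ICR mice of wild-type and sirt1 KO genotype, cultured for 6 days, with replicate 1 from females and replicate 2 from males. The DMSO and resveratrol groups were wild-type C57BL/6 males, cultured for 5 days and then exposed for 24 hours to the solvent or to resveratrol, at a dose the labels write as 10 with the unit "mm". Each group had 2 arrays, 1 per sample, and the labels do not say whether replicates were separate animals or cultures, so the p-values below speak to the spread of these 8 samples alone. The labels also do not say how the Sirt1 allele was made or in which cells it is lost. SIRT1 is an NAD-dependent deacetylase, and the title of the series sets its loss beside its gain of function.

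All levels below are log2 intensities relative to the 75th percentile of their own array, so 0 is the signal at that percentile. A probe's level depends on its own binding as well as on the transcript, so levels are compared between arrays and not between genes. That percentile of the signal ran from 716 to 871 for replicate 1 and from 249 to 377 for replicate 2, and 53.1% to 72.0% of probes were well above background, with 0 saturated spots. The lowest values of both belonged to WT 2. The 2 Sirt1 probes did not separate the genotypes: the brighter one read 0.16 and 0.17 on the WT arrays and 0.42 and -0.07 on the Sirt1 KO arrays. The labels do not say which part of the gene was removed, so these probes do not check the label, and every direction below rests on the arrays as labelled. Of the neural stem and progenitor markers, 9 of 10 were above background on all 8 arrays, as were 6 of 6 oligodendrocyte precursor markers, while 5 of 6 microglia and 4 of 5 endothelial markers were above background on none.

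As background, entry into mitosis is driven by the kinase CDK1 bound to A-type and B-type cyclins. Polo-like and Aurora kinases then build the spindle, the checkpoint kinases hold chromosomes until every kinetochore is attached, and the anaphase-promoting complex with CDC20 ends the stage by marking cyclin B and securin for destruction. Most of these genes are transcribed together in late S phase, G2 and mitosis. Their promoters are known for CCAAT boxes, bound by the factor NF-Y, and for a short element near the transcription start called the cell cycle genes homology region (CHR), bound by the MuvB complex. MuvB acts as a repressor with the DREAM proteins in resting cells and as an activator with B-MYB and FOXM1 in dividing cells. In the hippocampus such genes mark progenitors that are in cycle, and in a bulk sample fewer cells in mitosis and less RNA per cell cannot be told apart.

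The shared promoter elements are shown first because they are what the members have in common outside the arrays. RefSeq promoter windows (build GRCm38.p6, 250 bases before to 50 after the start) were found for 24 of the 30 members, in 25 windows; Aurkb, Ccna2, Dlgap5, Foxm1, Kif20a and Tpx2 had no entry. CCAAT, on either strand, lay in 21 of the 25 windows (84.0%) against 37.4% of all 32851 windows. The CHR sequence TTTGAA, on either strand, lay in 19 (76.0%) against 17.9%, and its variant TTTAAA, which reads the same on both strands and was counted separately, in 9 (36.0%) against 13.2%. Both CCAAT and TTTGAA were present in 18 of the windows (72.0%) against 6.95% of all. In 16 of the 18 members with TTTGAA, a copy began between position -30 and position 40 relative to the start. That span was set by hand, and the same share was not counted over all windows. It therefore does not show that this position is particular to the members. Among 48 windows of other mitotic genes 68.8% held CCAAT and 58.3% TTTGAA, and among 14 windows of anaphase-promoting complex subunits 7 held CCAAT and 1 TTTGAA (7.14%). These matches describe letters in a window and not binding. The lines below run from 130 bases before to 30 after the start, 5′ to 3′ on the strand of the gene, with CCAAT or its complement ATTGG and TTTGAA or its complement TTCAAA in capitals. They show 6 members that hold both elements and, last, Nusap1, which holds neither in the stretch shown. The regions are chr9:70421525-70421684 (minus strand) for Ccnb2, chr10:69352883-69353042 (minus) for Cdk1, chr4:118437314-118437473 (minus) for Cdc20, chr19:37376252-37376411 (plus) for Kif11, chr11:99024160-99024319 (minus) for Top2a, chr2:164769799-164769958 (plus) for Ube2c and chr2:119618168-119618327 (plus) for Nusap1.
Ccnb2: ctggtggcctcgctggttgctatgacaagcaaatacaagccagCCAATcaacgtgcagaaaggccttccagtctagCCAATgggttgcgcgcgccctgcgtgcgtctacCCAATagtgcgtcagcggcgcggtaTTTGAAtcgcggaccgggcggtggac
Cdk1: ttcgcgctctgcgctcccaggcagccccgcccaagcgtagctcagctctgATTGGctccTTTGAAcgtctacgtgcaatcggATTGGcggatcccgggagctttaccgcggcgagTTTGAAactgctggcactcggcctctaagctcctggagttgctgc
Cdc20: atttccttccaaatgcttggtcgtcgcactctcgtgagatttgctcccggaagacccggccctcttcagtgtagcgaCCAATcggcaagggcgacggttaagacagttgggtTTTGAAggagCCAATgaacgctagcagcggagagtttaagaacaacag
Kif11: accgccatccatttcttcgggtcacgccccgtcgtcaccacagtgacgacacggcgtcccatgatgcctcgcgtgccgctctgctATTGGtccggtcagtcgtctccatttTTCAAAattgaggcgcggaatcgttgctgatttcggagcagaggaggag
Top2a: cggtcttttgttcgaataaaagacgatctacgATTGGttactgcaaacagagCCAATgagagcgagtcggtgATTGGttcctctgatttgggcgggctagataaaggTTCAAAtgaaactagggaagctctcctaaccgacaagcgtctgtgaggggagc
Ube2c: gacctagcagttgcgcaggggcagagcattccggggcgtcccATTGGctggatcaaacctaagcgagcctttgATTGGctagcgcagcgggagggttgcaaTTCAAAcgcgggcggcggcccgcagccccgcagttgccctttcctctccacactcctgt
Nusap1: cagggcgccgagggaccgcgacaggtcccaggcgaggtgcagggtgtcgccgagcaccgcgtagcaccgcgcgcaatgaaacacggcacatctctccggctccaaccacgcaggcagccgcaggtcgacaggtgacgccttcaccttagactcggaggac
In Cdk1 the copy of TTTGAA nearest the start began at -15, in Cdc20 at -18 and in Ccnb2 at 5, and on the other strand it began at -19 in Kif11, -23 in Top2a and -29 in Ube2c. A CCAAT box lay upstream of that copy in each of the 6 stretches.

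**Figure D1:**
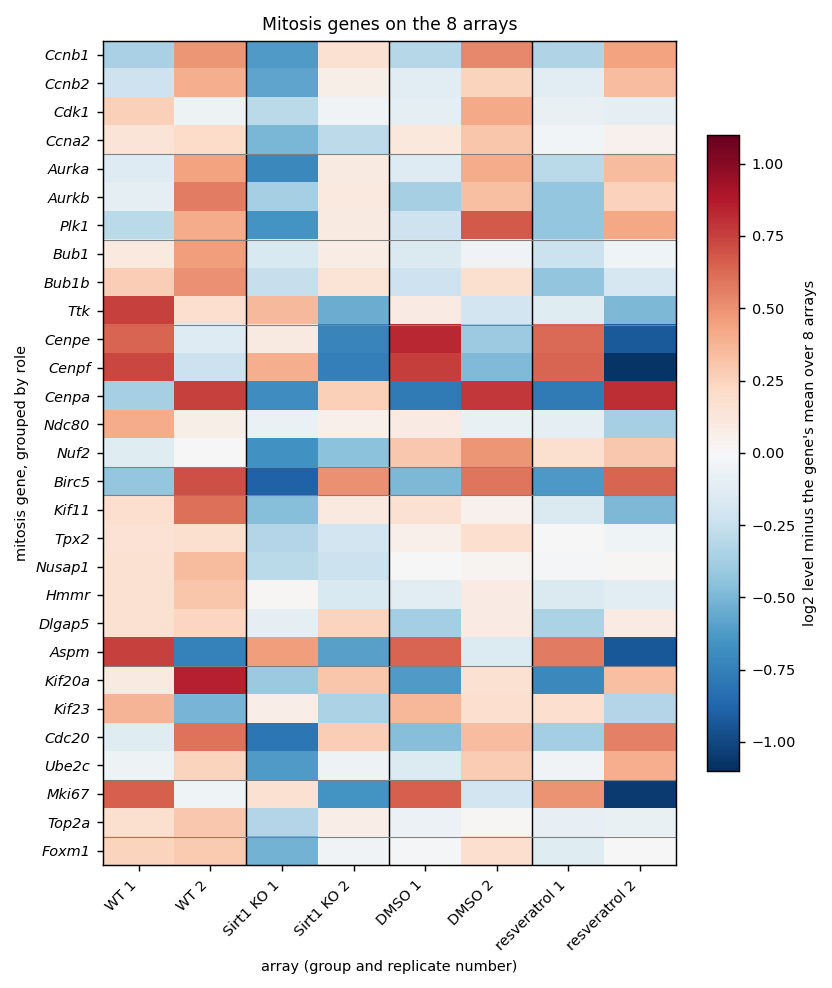
Each row is 1 of the 29 measured mitosis genes, grouped by role with grey lines between roles, and each column 1 array; colour gives the log2 level minus the mean of that gene over the 8 arrays. On Sirt1 KO 1, 7 genes lay above their mean and 14 had their lowest value, and on WT 2, 22 lay above their mean and 13 had their highest value; the rows for Cenpe, Cenpf, Aspm and Mki67 run the other way between replicate 1 and replicate 2.

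The first comparison asked how mitosis genes differ when SIRT1 is lost. All 29 read lower on average in the arrays labelled Sirt1 KO than in WT, where 55.7% of all genes did. The median difference was -0.43, against -0.03 over all genes, and the differences ran from -0.58 for Kif11 to -0.07 for Kif23. Within replicate number, 25 members were lower in both the female and the male arrays and 0 were higher in both, against 32.6% and 23.4% of all genes. The median was -0.49 between the replicate 1 arrays and -0.36 between the replicate 2 arrays, the latter on 1 slide. WT 1 lay on slide 1 and Sirt1 KO 1 on slide 2, so genotype and slide cannot be told apart between the replicate 1 arrays. No member passed limma's test after Benjamini-Hochberg adjustment, and neither did any of the 13305 genes (0% higher and 0% lower). At an unadjusted p under 0.05, 1 member was lower, Nusap1, beside 0.391% of all genes. The gap between replicates was wide: for 17 of the 29 the mean gap between replicates of 1 genotype was larger than the difference between genotypes, with a median gap of 0.57. The same count was not made over all genes. In both genotypes the replicates also differ in sex, slide and scan day, so this gap cannot be read as the spread between like samples.

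With replicate number as a block, which sets the female arrays against each other and the male arrays against each other, 24 of 29 members were lower at an unadjusted p under 0.05, beside 6.91% of all genes, and 0 were higher, beside 6.52%. After adjustment limma called 0 members in that fit, 0.308% of genes higher and 0.0676% lower, and the smallest adjusted p of a member was 0.0771 (Ccna2). With slide as a block the median was -0.50, against -0.11 over all genes, and 11 members were lower at an unadjusted p under 0.05, beside 4.83% of genes, again with 0 after adjustment. Groups did not overlap for 12 members, all 12 lower in Sirt1 KO, where 7.39% of all genes were lower and 7.59% higher without overlap.

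**Figure D2:**
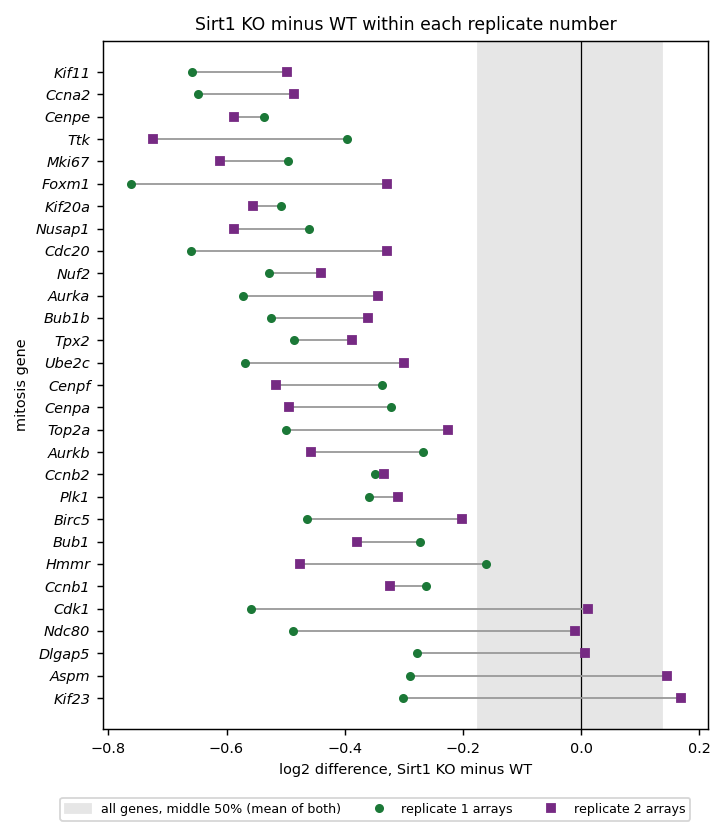
For each mitosis gene, the log2 difference Sirt1 KO minus WT is drawn between the replicate 1 arrays (circles, female) and between the replicate 2 arrays (squares, male), ordered by the mean of both; the grey band holds the middle 50% of all genes tested. Both points lie left of 0 for 25 genes, and the squares of Cdk1, Dlgap5, Aspm and Kif23 lie right of it.

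The cyclins and their kinase were lower by a median of 0.32 on the log2 scale, and 3 of the 4 were lower in both replicate numbers. Ccna2, which encodes cyclin A2 and acts from S phase to early mitosis, read 4.19 and 4.25 in replicates 1 and 2 of WT, 3.54 and 3.76 in Sirt1 KO, 4.16 and 4.35 in DMSO and 4.02 and 4.10 in resveratrol. Its Sirt1 KO arrays were the lowest of the 8 and did not overlap with WT. The difference was -0.57 (SE 0.25, n = 2 arrays per group), a 1.48-fold lower level. Ccnb1, encoding cyclin B1, read 2.11 and 2.96 in WT, 1.85 and 2.63 in Sirt1 KO, 2.16 and 3.0 in DMSO and 2.13 and 2.91 in resveratrol. Here the replicate 2 array was the higher one in each group by far more than the genotypes differed (-0.29, SE 0.48), so the groups overlapped. Its other 2 probes differed by -0.47 and -0.49. Ccnb2, the second B-type cyclin of mitosis, differed by -0.34 (SE 0.39). Cdk1, the kinase these cyclins activate, read 2.08 and 1.77 in WT, 1.52 and 1.78 in Sirt1 KO, 1.71 and 2.23 in DMSO and 1.74 and 1.72 in resveratrol. Only the female arrays differed, by -0.56, while the male arrays were within 0.01 of each other.

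The 3 mitotic kinases were lower in both replicate numbers, with a median of -0.36. Plk1, the polo-like kinase that acts at centrosomes and kinetochores, read 4.25 and 4.96 in WT, 3.90 and 4.65 in Sirt1 KO, 4.32 and 5.23 in DMSO and 4.13 and 4.98 in resveratrol. Aurka, which encodes the Aurora kinase of the spindle poles, read 3.93 and 4.51 in WT, 3.36 and 4.16 in Sirt1 KO, 3.93 and 4.47 in DMSO and 3.77 and 4.41 in resveratrol. Aurkb, the Aurora kinase of centromeres and the spindle midzone, read 0.85 and 1.51 in WT, 0.58 and 1.06 in Sirt1 KO, 0.59 and 1.28 in DMSO and 0.52 and 1.20 in resveratrol. All 3 were higher on every replicate 2 array than on the replicate 1 array of the same group, and WT and Sirt1 KO overlapped. Their differences were -0.33 (SE 0.51), -0.46 (SE 0.43) and -0.36 (SE 0.39). Birc5, survivin, the subunit that brings Aurora B to the centromere, followed the same order: it read 5.13 and 6.27 in WT, 4.67 and 6.06 in Sirt1 KO, 5.06 and 6.14 in DMSO and 4.92 and 6.2 in resveratrol. Its difference of -0.33 (SE 0.74) was -0.46 between the female and -0.20 between the male arrays.

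The 3 spindle checkpoint genes Bub1, Bub1b and Ttk, whose proteins delay anaphase until chromosomes are attached, were lower in both replicate numbers, with a median of -0.44. Bub1 read 1.27 and 1.63 in WT, 1.0 and 1.25 in Sirt1 KO, 1.01 and 1.12 in DMSO and 0.93 and 1.12 in resveratrol. Both WT arrays were the highest of the 8, and both Sirt1 KO arrays lay below them. Its difference was -0.33 (SE 0.23), but its dimmer second probe differed by 0.05. Bub1b differed by -0.44 (SE 0.26), also without overlap. Ttk read -1.43 and -2.0 in WT, -1.83 and -2.73 in Sirt1 KO, -2.10 and -2.40 in DMSO and -2.32 and -2.68 in resveratrol, so WT 1 stood above every other array. Its difference was -0.56 (SE 0.40), with overlap.

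Centromere and kinetochore genes had a median of -0.43, and all 5 were lower in both replicate numbers. Ndc80, the kinetochore subunit that binds microtubule ends, read 0.21 and -0.13 in WT, -0.27 and -0.14 in Sirt1 KO, -0.10 and -0.28 in DMSO and -0.30 and -0.56 in resveratrol. Its male WT and Sirt1 KO arrays were almost level, and the difference of -0.25 (SE 0.24) came from the female arrays (-0.49). Nuf2, the partner of Ndc80 in the same complex, read 2.46 and 2.59 in WT, 1.93 and 2.15 in Sirt1 KO, 2.89 and 3.09 in DMSO and 2.77 and 2.89 in resveratrol. These groups were clearly ordered, with Sirt1 KO lowest, WT between and both C57BL/6 groups highest, and the Sirt1 KO minus WT difference was -0.48 (SE 0.22). Cenpe, a kinesin that moves chromosomes to the spindle equator, read 3.91 and 3.14 in WT, 3.38 and 2.55 in Sirt1 KO, 4.10 and 2.87 in DMSO and 3.90 and 2.35 in resveratrol. It differed between genotypes by -0.56 (SE 0.66), with nearly equal values in the female (-0.54) and male arrays (-0.59), yet its 2 dimmer probes differed by -0.17 and 0.05. Cenpf, a protein of the outer kinetochore and nuclear matrix, differed by -0.43 (SE 0.73), and Cenpa, the histone H3 variant that marks centromeres, by -0.41 (SE 0.75).

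Spindle motors and spindle proteins had a median of -0.38, with 4 of the 6 lower in both replicate numbers and without overlap. Kif11, the kinesin that pushes the spindle poles apart, read 0.87 and 1.29 in WT, 0.21 and 0.79 in Sirt1 KO, 0.85 and 0.73 in DMSO and 0.52 and 0.19 in resveratrol. Both Sirt1 KO arrays lay below both WT arrays, and both resveratrol arrays below both DMSO arrays. Its Sirt1 KO minus WT difference of -0.58 (SE 0.29), a 1.49-fold lower level, was the lowest of the 29. Nusap1, which binds and bundles spindle microtubules, differed by -0.52 (SE 0.21; limma, unadjusted p = 0.0399), by -0.46 and -0.59 within the replicate numbers. Tpx2, the activator of Aurora A on the spindle, differed by -0.44 (SE 0.21) and Hmmr, a spindle pole protein, by -0.32 (SE 0.21). Dlgap5, which stabilises kinetochore microtubules, differed by -0.14 (SE 0.31). Aspm, a spindle pole protein of neural progenitors the loss of which causes microcephaly, read 0.21 and -1.29 in WT, -0.08 and -1.14 in Sirt1 KO, 0.10 and -0.69 in DMSO and 0.03 and -1.48 in resveratrol. Replicate 1 was higher than replicate 2 in all 4 groups, by more than any difference between groups, and Sirt1 KO minus WT was -0.07 (SE 0.71). Its dimmer kept probes differed by -0.26 and -0.43, and on these replicate 1 was the lower one in WT and Sirt1 KO.

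Anaphase and cytokinesis genes had a median of -0.46 over the 4 measured, of which 3 were lower in both replicate numbers. Cdc20, the activator of the anaphase-promoting complex, read 4.94 and 5.67 in WT, 4.28 and 5.34 in Sirt1 KO, 4.60 and 5.42 in DMSO and 4.69 and 5.63 in resveratrol. Sirt1 KO 1 was its lowest array and WT 2 its highest, and the genotypes differed by -0.49 (SE 0.56). Ube2c, the ubiquitin-conjugating enzyme of that complex, read 4.20 and 4.50 in WT, 3.63 and 4.20 in Sirt1 KO, 4.10 and 4.53 in DMSO and 4.21 and 4.65 in resveratrol. Both Sirt1 KO arrays lay below the lower WT array, the second of them only just, and the difference was -0.43 (SE 0.35). Kif20a, a kinesin of the spindle midzone, read 3.1 and 3.87 in WT, 2.60 and 3.31 in Sirt1 KO, 2.38 and 3.17 in DMSO and 2.30 and 3.34 in resveratrol. It differed by -0.53 (SE 0.50), by -0.51 and -0.56 within the replicate numbers. Kif23, the kinesin of the centralspindlin complex that sets the cleavage plane, read 0.83 and -0.06 in WT, 0.52 and 0.10 in Sirt1 KO, 0.81 and 0.64 in DMSO and 0.64 and 0.13 in resveratrol. Its female arrays differed by -0.30 and its male arrays by 0.17, while its other kept probe differed by -0.41 and -0.14.

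The remaining 3 members are the best known marks of cycling cells. Mki67, the Ki-67 protein that coats mitotic chromosomes, read 5.21 and 4.50 in WT, 4.72 and 3.89 in Sirt1 KO, 5.21 and 4.34 in DMSO and 5.04 and 3.49 in resveratrol. Within each replicate number its Sirt1 KO array was lower than WT (-0.50 and -0.61), but the replicates lay further apart and the SE of the difference of -0.55 was 0.62. Top2a, the topoisomerase that untangles sister chromosomes, read 2.43 and 2.55 in WT, 1.93 and 2.33 in Sirt1 KO, 2.19 and 2.26 in DMSO and 2.17 and 2.18 in resveratrol. The WT arrays were its 2 highest and Sirt1 KO 1 its lowest, and the genotypes differed by -0.36 (SE 0.23). Foxm1, the transcription factor that activates many of the other members in G2, read 1.91 and 1.95 in WT, 1.15 and 1.62 in Sirt1 KO, 1.64 and 1.85 in DMSO and 1.53 and 1.67 in resveratrol. WT replicates were nearly equal and above all other arrays; the difference was -0.55 (SE 0.24), by -0.76 in the female and -0.33 in the male arrays.

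Over all 42 kept probes of the members, 40 read lower in Sirt1 KO, and for 8 of the 10 genes with several probes these had the same sign. Further probes of a gene read the same samples, so they are no added replicates. The same shares were not counted over all probes. Leaving out an array moved the members and all genes together: without Sirt1 KO replicate 1 the median over the 29 genes was -0.20 and that over all genes 0.12, and without Sirt1 KO replicate 2 they were -0.59 and -0.15. The member median was -0.11, with all genes at 0.0055, when the background was modelled anew from the median signals of each spot (normexp), under which Ccnb2, Plk1, Kif23 and Birc5 read slightly higher in Sirt1 KO, against -0.37 with 1 background value per array. Leaving out 1 array turned the sign of 9 of the 29 genes at least once, Birc5, Ccnb1, Cdc20, Cenpa, Cenpf and Plk1 among them.

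Related lists, also chosen with earlier results of these data known, were set beside the members. Of 50 other mitotic genes, 47 were measured; 46 were lower in Sirt1 KO, 37 of them in both replicate numbers and 14 without overlap, against 55.7%, 32.6% and 7.39% of all genes, with a median of -0.38. The lowest differences were -0.76 for Cdca3, which triggers mitotic entry, and -0.72 for the checkpoint protein Mad2l1, while Wee1, the kinase that holds CDK1 inactive, read 0.74 higher on average, though not in both replicate numbers. DNA replication genes had a median of -0.42 over 30 measured, all 30 lower (55.7% of all genes) and 22 in both replicate numbers (32.6%). The 13 subunits and co-activators of the anaphase-promoting complex, which mark cyclin B and securin for destruction, had a median of -0.10, with 5 lower and 1 higher in both replicate numbers, beside 32.6% and 23.4% of all genes. Regulators of the E2F, Rb and MuvB families had a median of -0.18 over 19, and CDK inhibitors with D-type cyclins one of -0.15 over 9, where Cdkn1c, the inhibitor p57 of resting stem cells, read 1.49 higher. limma called 0 genes of these lists after adjustment, and with replicate number as a block 1 of the other mitotic genes (lower, beside 0.0676% of all genes) and 1 gene of the CDK inhibitor list (higher, beside 0.308%).

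Cell type markers did not all move the same way. Oligodendrocyte precursor markers had a median of -0.21 in Sirt1 KO minus WT. Of these 6, 3 were lower and 2 higher in both replicate numbers, beside 32.6% and 23.4% of all genes. Of 7 astrocyte markers 5 were higher in Sirt1 KO in both replicate numbers, beside 23.4% of all genes, with a median of 0.63. The sum of the linear levels of the 7 was 64.1 to 112 in WT and 95.7 to 172 in Sirt1 KO. Of the 7, 5 were above background on all 8 arrays, and Gfap and Aqp4 on 5 arrays each. Both were among those higher, and both were dim in WT, Gfap at -7.66 and -5.73 and Aqp4 at -4.85 and -5.85. Their differences therefore start from near background. The neural stem and progenitor list summed to 377 to 702 in WT and 378 to 612 in Sirt1 KO, and its median difference was 0.06. The summed level of the mitosis genes was 279 to 366 in WT and 198 to 289 in Sirt1 KO. Whether the makeup of the spheres had a part in the mitosis gene values was not tested.

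**Figure D3:**
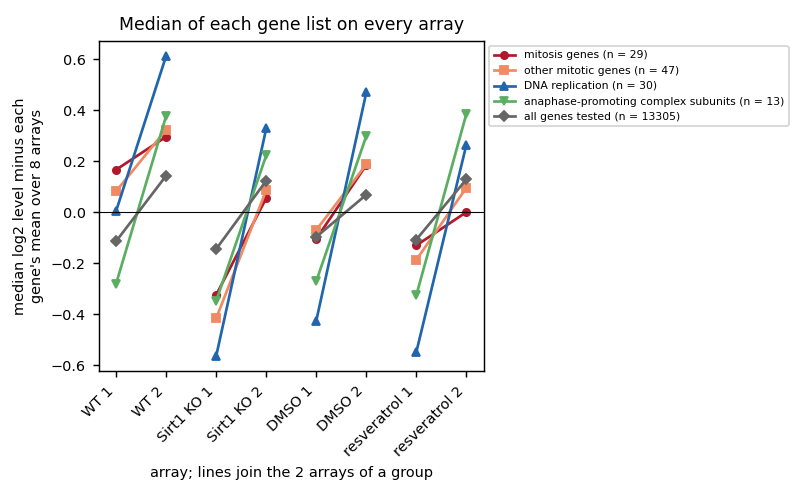
Points give, for each array, the median over a gene list of the log2 level minus the mean of each gene over the 8 arrays, and lines join the replicates of a group. Mitosis genes stood at 0.17 and 0.30 on the WT arrays and at -0.32 and 0.06 on the Sirt1 KO arrays, while all genes stood at -0.11 and 0.14 and at -0.14 and 0.12; each of the 5 lists drawn read higher on replicate 2 than on replicate 1 in each group.

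The second comparison asked what 24 hours of resveratrol did against its solvent in C57BL/6 cells. Mitosis genes differed little: the median was -0.14, against 0.01 over all genes, with 23 members lower and 6 higher, beside 48.2% and 51.8% of all genes. Within replicate number, 21 were lower and 4 higher in both, against 33% and 35.4% of all genes, and 7 were lower and 0 higher without overlap, beside 8.85% and 10.2% of all genes. The pair medians were -0.08 on slide 1 (replicate 1) and -0.20 on slide 2 (replicate 2). limma called 0 members and 0% of genes in either direction after adjustment; at an unadjusted p under 0.05 it called 0 members, and 1.21% of genes higher and 0.316% lower. With replicate number, and so slide, as a block, 4 members were lower and 0 higher at an unadjusted p under 0.05, beside 4.83% and 9.26% of genes, and 0 were called after adjustment, beside 0.474% of genes higher and 0.0676% lower.

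The lowest members were Mki67 at -0.51 (SE 0.62), Kif11 at -0.43 (SE 0.29) and Aspm at -0.43 (SE 0.71). Cenpe followed at -0.36 (SE 0.66), Cenpf at -0.36 (SE 0.73) and Kif23 at -0.34 (SE 0.36). Of these 6, Kif11 alone had groups that did not overlap. The difference of Mki67 was -0.17 between the replicate 1 arrays and -0.85 between the replicate 2 arrays, and that of Aspm -0.07 and -0.79, so most of each came from 1 pair. Kif11 differed by -0.33 and -0.54. Without resveratrol replicate 2 the sign turned for Mki67 (0.27), Aspm (0.32), Cenpe (0.41) and Cenpf (0.50), and not for Kif11 (-0.27), and it turned for Cenpe (0.25) and Cenpf (0.27) without DMSO replicate 1. Among the cyclins and kinases Cdk1 differed by -0.25 (SE 0.26), but by 0.02 and -0.51 within the pairs. Plk1 differed by -0.22 (SE 0.51), Ccna2 by -0.20 (SE 0.25), Bub1b by -0.28 (SE 0.26) and Foxm1 by -0.15 (SE 0.24), each lower in both pairs. The highest were the anaphase genes Cdc20 at 0.15 (SE 0.56) and Ube2c at 0.11 (SE 0.35), each higher in both pairs, though without resveratrol replicate 2 they stood at -0.31 and -0.11.

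**Figure D4:**
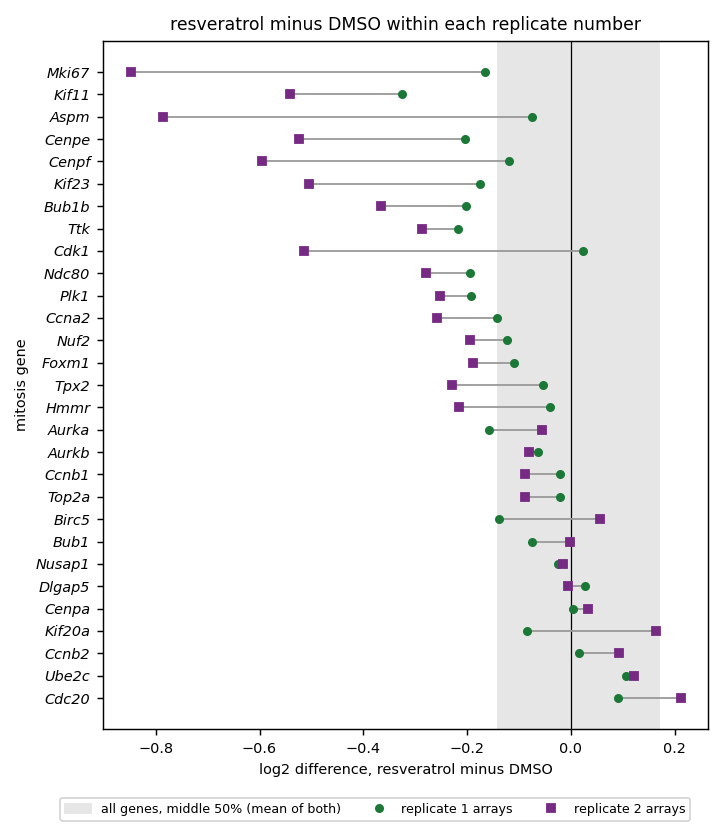
The log2 difference resveratrol minus DMSO is drawn for each mitosis gene between the replicate 1 arrays (circles, slide 1) and between the replicate 2 arrays (squares, slide 2), ordered by the mean of both; the grey band holds the middle 50% of all genes tested. The widest gaps between circle and square are those of genes at the top, Mki67 at -0.17 and -0.85 and Aspm at -0.07 and -0.79.

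The other mitotic genes gave a median of -0.14 as well, with 37 lower and 10 higher of 47, beside 48.2% and 51.8% of all genes, led by the kinetochore scaffold Knl1 at -0.53 and the condensin subunit Smc4 at -0.49, while Gtse1, a microtubule protein that also restrains p53, read 0.53 higher and the securin gene Pttg1 0.47 higher. DNA replication genes had a median of -0.13 and anaphase-promoting complex subunits one of 0.03. Among CDK inhibitors, Cdkn1a, the p53 target p21, differed by 1.13 and Cdkn1c by -1.02. The summed level of astrocyte markers was 121 to 135 in DMSO and 120.5 to 128 in resveratrol. The 6 oligodendrocyte precursor markers were all lower in resveratrol, 5 in both replicate numbers (33% of all genes), with a median of -0.54 and summed levels of 193 to 218 in DMSO and 163 to 164 in resveratrol. Their part in the mitosis gene values was not tested.

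The third contrast set the genotype difference against the treatment difference, each within its own strain. For 27 of 29 members the Sirt1 KO minus WT difference was lower than the resveratrol minus DMSO difference, as it was for 56.1% of all genes, and for 2 it was higher, as for 43.9%, with a median of -0.29 against -0.05. limma called 0 members and 0% of genes after adjustment, and 0 members at an unadjusted p under 0.05, where 0.376% of genes were above 0 and 0.571% below. The lowest values were those of Cdc20 (-0.64, SE 0.80) and Kif20a (-0.57, SE 0.71), and Nusap1 stood at -0.50 (SE 0.29). The highest were Aspm (0.36, SE 1.0) and Kif23 (0.27, SE 0.51). With replicate number as a block 7 members were below 0 at an unadjusted p under 0.05, and 0 above 0, beside 7.56% and 4.42% of genes. After adjustment limma called 0 members in that fit, 0.158% of genes above 0 and 0.18% below. The mitosis genes were lower in both comparisons on average, but the difference between the comparisons was not detectable gene by gene with these arrays.

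The fourth comparison placed the 2 control groups side by side. DMSO and WT differ in strain, solvent and culture schedule, for replicate 1 also in sex, and for replicate 2 also in slide and scan day. These cannot be told apart. Both groups are the controls of the comparisons above, so their values are not independent of those. The median over the members was -0.11, against -0.02 over all genes, with 22 lower and 7 higher in DMSO, beside 52.5% and 47.5% of all genes. In both replicate numbers 16 were lower and 3 higher, against 32.6% and 27.8% of all genes, and without overlap 9 were lower and 1 higher, against 13.5% and 12.7%. limma called 0 members after adjustment, beside 0.0376% of genes higher and 0.0451% lower, and 0 members at an unadjusted p under 0.05, beside 2.79% and 2.82%. Kif20a was lowest, at -0.71 (SE 0.50) and by -0.72 and -0.69 within the replicate numbers. Ttk (-0.53, SE 0.40) and Bub1b (-0.41, SE 0.26) followed, and all 3 spindle checkpoint genes were lower without overlap. Nuf2 was highest, at 0.47 (SE 0.22), and was the 1 member higher without overlap, and Kif23 stood at 0.34 (SE 0.36). Cyclins and their kinase were level, with a median of 0.04. Among other mitotic genes Pttg1 read 1.68 lower and Ckap2l, a spindle protein of neural progenitors, 0.93 higher in DMSO. Astrocyte markers had a median of 0.87 in this comparison but were split. Of the 7, 4 were higher and 3 lower in both replicate numbers, beside 27.8% and 32.6% of all genes. Oligodendrocyte precursor markers had a median of 0.76, with 4 of 6 higher and 0 lower in both. Summed levels of the 2 lists were 64.1 to 112 and 172 to 195 in WT and 121 to 135 and 193 to 218 in DMSO. Their part in the mitosis gene values was not tested.

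The differences between replicates followed a shared order across the groups. Replicate 2 read higher than replicate 1 in all 4 groups for 18 members (62.1%), as it did for 44.3% of all genes, and lower in all 4 for 6 members (20.7%), as for 21.4% of all genes. The 6 were Cenpf, Aspm, Cenpe, Mki67, Ttk and Kif23, each on the probe used for the gene. The other kept probes of Aspm read higher on replicate 2 in WT and Sirt1 KO, and lower in DMSO and resveratrol. The other kept probe of Kif23 was level in DMSO, at 0.560 and 0.566, so for Aspm and Kif23 the order depends on the probe. Cenpf was lower by 0.97 in WT, 1.15 in Sirt1 KO, 1.25 in DMSO and 1.72 in resveratrol. At the other end Cenpa was higher by 1.12, 0.94, 1.56 and 1.59 in the same groups, and Birc5 by 1.13, 1.40, 1.08 and 1.27. Genes for proteins of 1 structure, such as CENPA, CENPE and CENPF at the kinetochore, went opposite ways between replicates. Across the 29 members the replicate difference of the WT and Sirt1 KO arrays correlated with that of the DMSO and resveratrol arrays with Pearson's r of 0.93 (0.70 over all genes). No array is shared between the 2, but slides are, and in both arms the replicate 2 arrays had the weaker signal. In the WT and Sirt1 KO groups the numbers also differ in sex, and in the other groups they do not. The part of signal strength in this order was not tested.

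**Figure D5:**
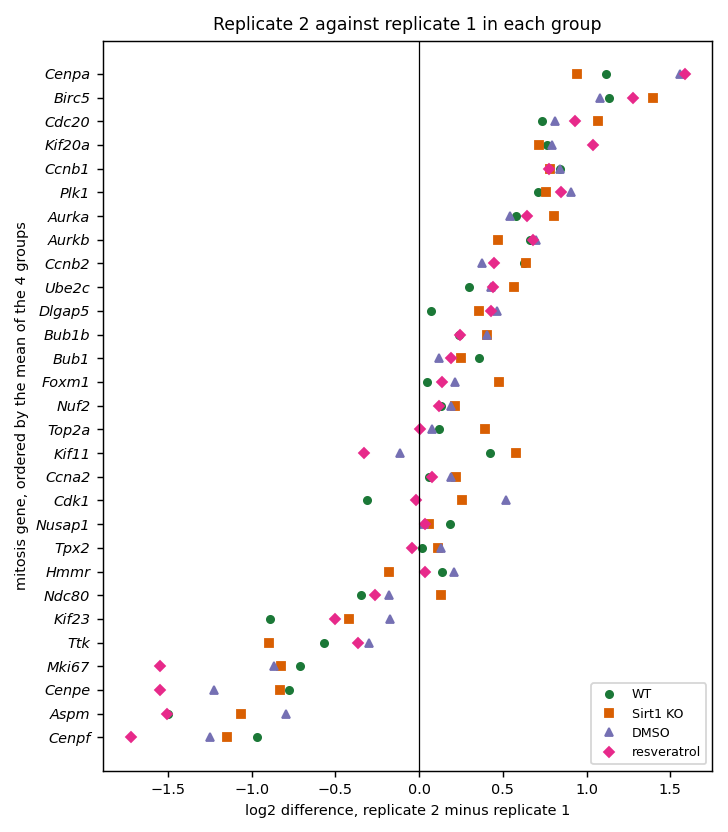
Each row is a mitosis gene and each point the log2 level on the replicate 2 array minus that on the replicate 1 array of 1 group, ordered by the mean of the 4 groups. All 4 points lie below 0 for 6 genes, Cenpf, Aspm, Cenpe and Mki67 among them, and above 0 for 18, Cdc20, Birc5 and Cenpa among them; the points of a gene spread from -1.55 to -0.71 for Mki67, and those of Cdk1 (-0.31 to 0.52) and Kif11 (-0.33 to 0.58) lie on both sides of 0.

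That order also ran through 1 of the treatment pairs. The resveratrol minus DMSO difference between the replicate 2 arrays correlated across the 29 members with the replicate difference of the WT and Sirt1 KO arrays, with r of 0.79 (0.29 over all genes), and that between the replicate 1 arrays with r of 0.29. Mki67, Aspm, Cenpf and Cenpe read lower on replicate 2 in all 4 groups, on the probes used. Together with Kif11 they were, on these probes, the 5 members that read lowest on resveratrol 2 relative to DMSO 2. Resveratrol 2 had the weaker signal of that pair, with 75th percentiles of 287 and 377. For Sirt1 KO minus WT, set against the replicate difference of the DMSO and resveratrol arrays, r was 0.01 between the female and 0.04 between the male arrays (-0.15 and -0.09 over all genes). Spearman's rank correlation over the members was 0.0049 and 0.25 there, and 0.28 and 0.75 for the replicate 1 and replicate 2 treatment pairs. These correlations are over genes, which share arrays and are not independent replicates, so they describe these 8 arrays and carry no test.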

How the data were processed

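Each of the 8 RNA samples was hybridised to its own Agilent array in a single colour (Cy3). The deposited scanner files hold an intensity per spot, which Agilent Feature Extraction (10.7 per the submitters' processing notes, 10.7.3.1 per the file headers) had corrected for background, without normalizing arrays to each other. In the deposited value table the numbers are log2, quantile normalized by its values: ordered values matched within 0.01 for at least 99.6% of probes among 6 arrays and among the 2 of slide 3, but not between these sets. It served as an alternative.

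Here outlier-flagged spots were dropped, spots of a probe averaged, and log2 processed intensities centred on each array's 75th percentile. A probe was kept if both arrays of any group had it well above background, accessions were named through a RefSeq table (14256 probes stayed unnamed), and each gene was read from its kept probe of highest mean. The fit used limma 3.58.1 (R 4.3.3): 4 group means over 8 arrays, intensity trend, two-sided tests, Benjamini-Hochberg adjustment over 13305 genes, threshold 0.05. The fit was tested on simulated data. The arrays lay on 3 slides per the file headers: WT 2 and Sirt1 KO 2 on slide 3, scanned on another day; Sirt1 KO 1 with DMSO 2 and resveratrol 2 on slide 2; the other 3 on slide 1. Same-numbered arrays deviated together (correlation 0.74 in the genotype arm, 0.83 in the treatment arm). They did so across the arms as well (0.60 for WT with DMSO, 0.64 for Sirt1 KO with resveratrol), so this is not particular to arrays within an arm. Same-numbered arrays share sex per the labels in the first arm and slide per the headers in the second. Replicate number within each arm was therefore also fitted as a block. Alternatives changed the background correction, scaling, filter, probe choice, trend, arrays used and blocks. The number of arrays limits the precision.

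Members and lists were chosen with earlier results of these data known. Genes with full values were 14 that stand for their roles and the 2 highest and 2 lowest of each comparison, with Cenpe added after its values were seen; of other lists, the 2 with the largest differences either way could be named.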

Additional observations from a re-analysis of the deposited data

Results flagged for a closer look

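In all, 4 of the 29 mitosis genes read lower in Sirt1 KO than in WT between the female arrays and higher between the male arrays, with 1 array per sex and genotype, so this difference was not tested. Over all genes 22.9% showed the same pattern, against 13.8% of the mitosis genes. Cdk1, the kinase of mitotic entry, differed by -0.56 between the female and 0.012 between the male arrays. The midzone kinesin Kif23 differed by -0.30 and 0.17, and the spindle pole protein Aspm by -0.29 and 0.15. The other kept probe of Kif23 differed by -0.41 and -0.14. The other kept probes of Aspm differed by -0.26 and -0.26 and by -0.60 and -0.26. For Kif23 and Aspm the pattern therefore rests on 1 probe each. The spindle protein Dlgap5 differed by -0.28 and 0.0064. The male arrays were the replicate 2 arrays, on another slide and with the weaker signal, so sex, slide, scan day and signal strength cannot be told apart here. The male arrays of both genotypes shared slide 3, but the female WT array lay on slide 1 and the female Sirt1 KO array on slide 2. Genotype and slide therefore cannot be told apart in the female differences.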

How the results depend on the processing

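Of 13 other settings for Sirt1 KO minus WT, 5 leave each member's difference as it was by construction, since they change the filter, the spread or a balanced block. Of the 232 values of single members under the other 8 settings, 225 kept their direction. Normexp on median signals turned Ccnb2 (0.0061), Plk1 (0.055), Kif23 (0.027) and Birc5 (0.048), and slide as a block turned Kif23 (0.12), Cenpf (0.15) and Aspm (0.43). In resveratrol minus DMSO all 91 values of 13 named members under the 7 settings that can move them kept it, and in the contrast between comparisons Aspm turned under normexp (-0.016) and when kept probes were averaged (-0.023). Normexp moved the member median to -0.11 for Sirt1 KO minus WT, 0.016 for the contrast between comparisons and 0.12 for DMSO minus WT. The replicate block called 50 genes in Sirt1 KO minus WT, 72 in resveratrol minus DMSO, 45 in the contrast between comparisons and 1560 in DMSO minus WT. Of the members, 2 were among the last, Kif20a (-0.71, limma adjusted p = 0.00647) and Nuf2 (0.47, limma adjusted p = 0.0293), and 0 among the others. The labels do not say whether same-numbered samples were paired. The replicate 1 arrays of WT and DMSO share slide 1, and their replicate 2 arrays share sex. All of them differ in strain and culture, so the last count is no paired comparison. In DMSO minus WT the 11 calls over all genes became 4 under normexp, 22 with quantile normalization, 29 with the deposited table, 4 with probes above background on all 8 arrays, 6 from those 2 groups alone and 142 with slide as a block.

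Leaving out 1 array at a time, where a lone array is assumed to vary like the other groups, 0 to 5 genes were called in Sirt1 KO minus WT (5 without Sirt1 KO 1), 0 to 3 in the contrast between comparisons and 0 to 4 in DMSO minus WT, with 0 members throughout. The member median ran from -0.59 to -0.20, -0.43 to -0.11 and -0.31 to -0.077 in these, and from -0.25 to -0.02 in resveratrol minus DMSO. The median of all genes moved with it, from -0.16 to 0.12 in Sirt1 KO minus WT. These fits set different replicate numbers against each other. In Sirt1 KO minus WT, signs turned for Aspm (-0.82 to 0.68), Birc5 (-1.03 to 0.36), Ccnb1 (-0.71 to 0.13), Cdc20 (-1.03 to 0.039), Cenpa (-0.97 to 0.15), Cenpf (-1.0 to 0.15), Dlgap5 (-0.31 to 0.041), Kif23 (-0.51 to 0.38) and Plk1 (-0.71 to 0.044). In resveratrol minus DMSO they turned for Aspm (-1.18 to 0.32), Cdc20 (-0.31 to 0.62), Cdk1 (-0.50 to 0.013), Cenpe (-1.14 to 0.41), Cenpf (-1.22 to 0.50), Mki67 (-1.28 to 0.27), Plk1 (-0.68 to 0.23) and Ube2c (-0.11 to 0.33). They also turned for Aspm (-0.39 to 1.11) and Kif23 (-0.17 to 0.72) in the contrast between comparisons and for Kif23 in DMSO minus WT (-0.10 to 0.79). The normexp setting with 1 background per array was chosen after seeing the data; normexp on mean signals was not run. Causes of these changes were not tested.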
